A study of Homo sapiens with 6 samples.

Results

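The 29 genes described here cover most steps of cholesterol synthesis, the sterol-sensing SREBP system and the oxysterol-sensing LXR system, and the enzymes FASN and SCD of fatty acid synthesis. They were listed by name and matched by symbol, which found all 29 among the 61552 genes of the files, and 28 of them were among the 15063 genes with enough counts to test. The cells were NCI-H520, a long-established human cell line from a squamous carcinoma of the lung, labelled wild type and grown in RPMI medium with fetal bovine serum. One group of 3 RNA-seq libraries came from cells given phosphate-buffered saline (PBS) and the other group of 3 from cells given the DNA-crosslinking platinum drug cisplatin at 2 µM, both sampled at 48 h. By its title the series is about SOX2 and chemotherapy, and the comparison of interest here is how sterol and lipid genes stand after the drug.

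Cells build cholesterol from acetyl-CoA through mevalonate, isoprenoid diphosphates, squalene and lanosterol. When sterols in the endoplasmic reticulum are low, the carrier SCAP escorts the membrane-bound factors SREBP1 and SREBP2 to the Golgi, where they are cut and released to switch on the genes of sterol and fatty acid synthesis; the INSIG proteins hold SCAP back when sterols are high. LXR receptors respond to oxysterols and switch on the efflux transporters ABCA1 and ABCG1.

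Expected counts totalled 9121180 to 16724285 per library. Whether the replicates were separate cultures is not labelled, and p-values therefore reflect the scatter among these libraries alone, which may be technical. In bulk RNA, fewer cells of a kind and less RNA per cell cannot be told apart. SOX2 was at 135 to 182 TPM (transcript abundance scaled to a fixed library total, a level per length) in the 6 libraries, whereas the squamous markers KRT5, at 2.61 to 4.2 TPM, and TP63, at most 0.18 TPM, were low and DSG3 was listed at 0 in all 6. KRT6A was at 36.3 TPM in PBS replicate 1 and at 0.95 to 1.47 TPM in the other libraries. It had at most 37 expected counts in any library, so the 36.3 TPM rests on few counts and is no sure sign of a higher level. KRT14 was at most 0.5 TPM and PKP1 at most 0.06 TPM. The 4 epithelial markers summed to 1574 to 1837 TPM under PBS and 1822 to 1854 TPM under cisplatin. Markers of other cell types stood far lower. The 6 leukocyte markers summed to 1.76 to 2.26 TPM under PBS and 3.31 to 4.21 TPM under cisplatin, with PTPRC and CD3E at 0 in every library. Within that list LYZ went from 0.61 to 1.18 TPM under PBS to 2.91 to 3.7 TPM under cisplatin, and CD14 from 0.93 to 1.15 TPM to 0.4 to 0.53 TPM. The 4 hepatocyte markers summed to 0.10 to 0.66 and 1.01 to 2.27 TPM, with TTR at 0. Fibroblast markers (6 genes, COL3A1 at 0) summed to 4.38 to 6.05 and 6.60 to 6.83 TPM, and the 4 endothelial, 4 steroidogenic and 3 adipocyte markers to under 0.50 TPM per library each. The part of these small differences in the results was not tested.

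As a share of each scaled library, the mRNA of 6 of the 28 tested genes was higher under cisplatin and that of 6 others lower. Amounts per cell were not measured here. All 3 genes that lead from isopentenyl diphosphate to squalene rose (IDI1, FDPS and FDFT1), as did 3 of the 8 late enzymes between lanosterol and cholesterol (TM7SF2, NSDHL and EBP). The transcription factor SREBF2, its retention protein INSIG1, both enzymes of fatty acid synthesis (FASN and SCD), squalene epoxidase (SQLE) and the lanosterol demethylase CYP51A1 fell. None of the 5 genes of the mevalonate steps passed the test. The log2 fold changes ran from -0.58 for FASN to 0.91 for TM7SF2, with a median of 0.08, against -0.00035 over all tested genes.

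A gene was called when edgeR's quasi-likelihood p, adjusted over all tested genes by Benjamini-Hochberg, was under 0.05. Of all 15063 tested genes, 38.2% were called, 18.9% higher and 19.3% lower. The 12 called genes are 42.9% of the 28 tested here, 21.4% in each direction, which is close to that background. These counts are therefore no result about the list, and its members are described one by one. The CPM (counts divided by the scaled library size, the scale of the test) of the groups did not overlap in 16 of the 28 genes, beside 49.7% of all tested genes.

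**Figure D1:**
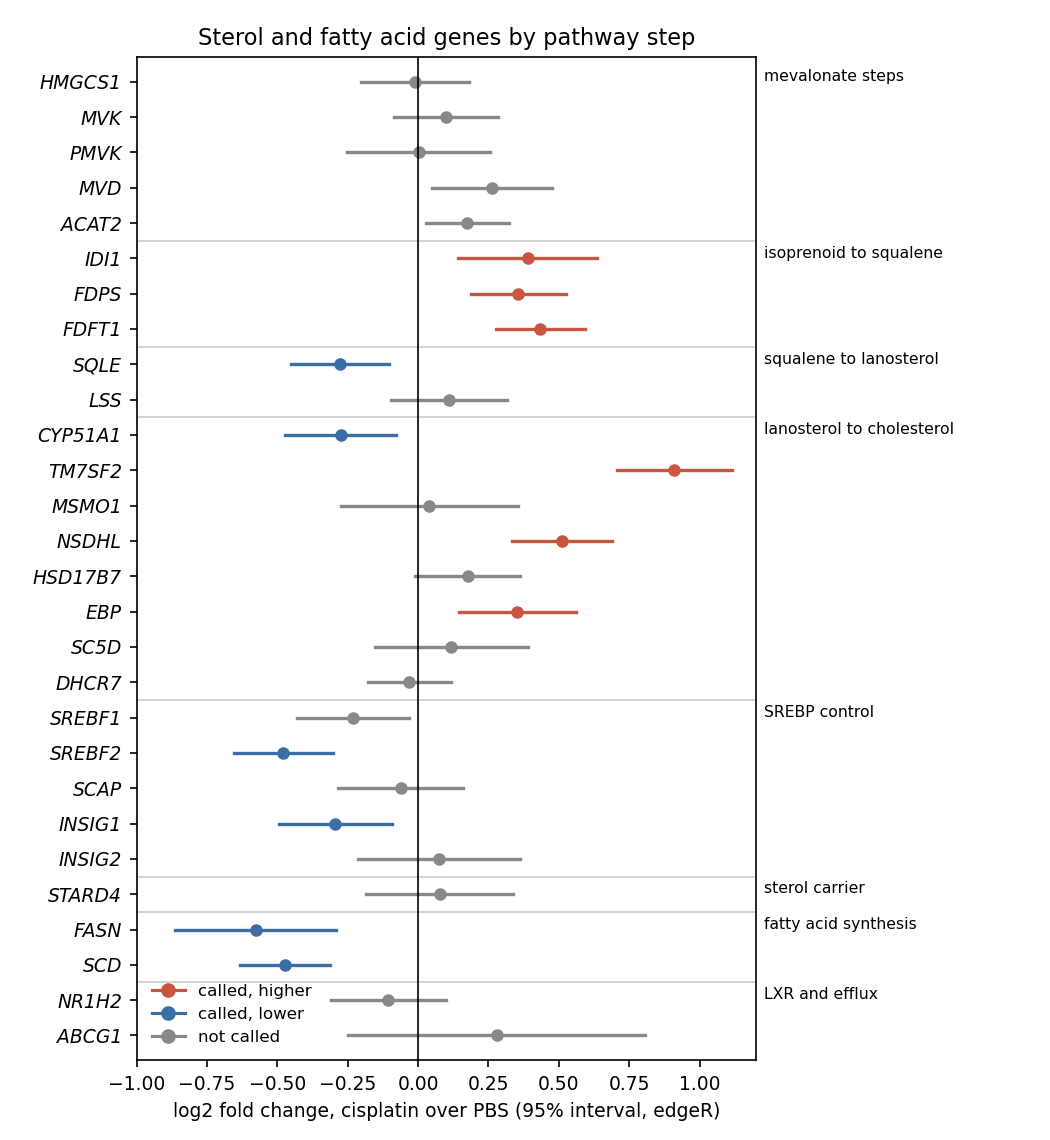
Log2 fold change, cisplatin over PBS, of the 28 tested genes in pathway order, with 95% intervals from edgeR; 3 libraries per group. Red marks the 6 genes called higher, blue the 6 called lower and grey the genes that did not pass; the red points lie in the steps to squalene and in the late sterol steps, and the blue points in SREBP control, fatty acid synthesis, SQLE and CYP51A1.

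Sequences upstream of the annotated start are shown for the 2 risen and 3 fallen genes with the largest changes among those whose promoter was searched. Genes holding a sterol-element match are shown too, so that a reader can see the matches inside each stretch. The promoters were those of RefSeq (build GRCh38.p14). SREBPs bind sterol regulatory elements and are known to act together with NF-Y, which binds CCAAT boxes, and with SP1, which binds GC boxes. The letters TCACNCNAC (sterol-element-like), CCAAT and GGGCGG (GC box) were searched on both strands of the 250 bases before and 50 bases after each start. Capitals mark every match within a stretch, on either strand. All stretches run 5′ to 3′ on the plus strand, which is the strand of these genes. Each stretch ends before both the RefSeq and the GENCODE start of the gene, and for HSD17B7 only the 30 bases around the match are shown. Matches outside the stretches were counted but are not printed. They include GC boxes of SREBF2 (23, 10 and 5 bases before the RefSeq start), SCD (33 and 11), FDPS (22) and INSIG1 (93 and 80). Further CCAAT matches lie 51 bases before the start in FDPS and 84 in NSDHL. HSD17B7 holds a GC box and CCAAT matches outside its 30 bases.
TM7SF2, chr11:65111645-65111844: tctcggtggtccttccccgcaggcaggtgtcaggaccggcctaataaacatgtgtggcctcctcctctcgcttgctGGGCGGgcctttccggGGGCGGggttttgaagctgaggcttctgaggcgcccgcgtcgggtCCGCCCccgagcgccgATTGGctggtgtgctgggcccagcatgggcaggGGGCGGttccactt
NSDHL, chrX:152830813-152830966: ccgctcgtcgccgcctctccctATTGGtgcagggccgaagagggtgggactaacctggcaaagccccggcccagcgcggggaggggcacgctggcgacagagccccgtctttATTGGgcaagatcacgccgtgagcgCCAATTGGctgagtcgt
FDPS, chr1:155308616-155308747: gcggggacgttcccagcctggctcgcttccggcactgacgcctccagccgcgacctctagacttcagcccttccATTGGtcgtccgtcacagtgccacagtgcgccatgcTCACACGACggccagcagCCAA
SREBF2, chr22:41832879-41833078: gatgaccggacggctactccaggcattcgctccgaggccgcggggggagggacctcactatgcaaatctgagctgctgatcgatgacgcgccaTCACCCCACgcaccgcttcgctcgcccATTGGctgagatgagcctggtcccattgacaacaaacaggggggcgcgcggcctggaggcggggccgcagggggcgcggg
SCD, chr10:100346983-100347123: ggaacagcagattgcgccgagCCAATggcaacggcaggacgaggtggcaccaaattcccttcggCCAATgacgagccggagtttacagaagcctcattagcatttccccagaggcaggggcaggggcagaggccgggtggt
INSIG1, chr7:155297628-155297775: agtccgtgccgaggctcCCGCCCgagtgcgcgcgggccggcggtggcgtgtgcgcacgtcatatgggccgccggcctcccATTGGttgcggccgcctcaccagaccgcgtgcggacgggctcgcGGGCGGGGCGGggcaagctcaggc
HSD17B7, chr1:162790594-162790623: tcggcctatcTCACCCGACgccgtctccga
In NSDHL the 8 capitals CCAATTGG hold a CCAAT match on each strand, and the last capitals of FDPS belong to a CCAAT match whose final base lies past the stretch.

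Promoters of members on chromosome 8, which holds FDFT1 and SQLE, were left out of the search, but not of the counts over all promoters. No promoter was searched for ABCG1, ACAT2 or FASN either. Of the 29 genes, 24 had a RefSeq promoter that was searched. Sterol-element-like letters were found in 3 of these 24 (FDPS, HSD17B7 and SREBF2), or 12.5%, beside 2.55% of all 35116 RefSeq promoters. FDPS rose, SREBF2 fell and HSD17B7 did not pass the test. The stricter letters TCACNCCAC were in SREBF2 alone, beside 1.13% of all promoters. CCAAT was present in 17 of the 24 genes (70.8%), beside 34.6% of all promoters, and a GC box in 23 of 24 (95.8%), beside 45.0%. A gene counted if any of its promoters held the letters, while the shares over all promoters count each promoter singly. Genes with several promoters, such as IDI1, thus had more places for a match, and the shares are not on the same unit. By call, CCAAT was found in 5 of 5 risen, 3 of 4 fallen and 9 of 14 uncalled genes with a searched promoter. A match says only that the letters are there, and binding was not measured.

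The mevalonate steps were represented by HMGCS1, which makes HMG-CoA, and by MVK, PMVK and MVD, which phosphorylate mevalonate and then decarboxylate it; ACAT2, the cytosolic thiolase, makes the acetoacetyl-CoA that HMGCS1 uses. HMGCS1 averaged 118 ± 12.9 CPM in PBS libraries against 118 ± 6.51 CPM in cisplatin libraries (SD, n = 3). Its log2 fold change was -0.01, with a 95% interval of the fold change from 0.870 to 1.13. MVK (0.10) and PMVK (0.00) did not pass either, and their groups overlapped. MVD lay at 69.1, 65.1 and 65.3 CPM under PBS and 74.8, 71.3 and 92.2 CPM under cisplatin, so the groups did not overlap, with the third cisplatin library well above the others. Its log2 fold change of 0.26 ± 0.10 (SE) narrowly missed the threshold (edgeR adjusted p = 0.0504). That p ran from 0.0232 to 0.298 over the 15 alternatives, and MVD was called in 7 of them. ACAT2 did not overlap between groups either, at 131 ± 3.32 and 147 ± 2.16 CPM (log2 fold change 0.18 ± 0.07, edgeR adjusted p = 0.0572). It passed in 2 alternatives, with the 50-count filter (0.0389) and among protein-coding nuclear genes alone (0.0494), and its adjusted p reached 0.618 in limma on log2(TPM + 1). Summed over the 5 genes, the step held 286 ± 31.0 TPM under PBS and 290 ± 5.96 TPM under cisplatin (two-sided exact permutation p = 0.9). In CPM, the same 5 genes summed to 365 ± 9.14 and 396 ± 9.19 without overlap (exact permutation p = 0.1). With 3 libraries against 3 this test cannot go below 0.1.

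The isoprenoid enzymes rose together. IDI1 (chromosome 10, 1039152 to 1049170, minus strand) interconverts isopentenyl and dimethylallyl diphosphate. It stood at 54.0, 67.3 and 53.1 CPM under PBS and at 68.4, 87.8 and 72.9 CPM under cisplatin. The groups did not overlap, although the highest PBS library lay only just under the lowest cisplatin library. Its log2 fold change was 0.39 ± 0.11 (SE; edgeR adjusted p = 0.0173). In TPM, which divides by the estimated transcript length, IDI1 was at 29, 35.2 and 33.0 and then 34.3, 45.8 and 36.5, so on that scale the groups overlapped. TPM also lacks the library scaling of CPM, so the scales differ by library as well as by length. PMVK, at 1002 bases in every library, was in PBS replicate 3 at its lowest PBS level in CPM (15.3) and its highest in TPM (28.3). The call of IDI1 was lost without PBS replicate 1, PBS replicate 3 or cisplatin replicate 2. There its log2 fold change was 0.34, 0.32 and 0.29 and edgeR's adjusted p 0.0676, 0.0681 and 0.0715. In limma on log2(TPM + 1) IDI1 was not called either. Its adjusted p was between 0.000354 and 0.208 across the 15 alternatives. The antisense gene IDI2-AS1 covers 14.8% of the exonic bases of IDI1 and averaged 1.76 CPM in PBS and 0.995 CPM in cisplatin libraries; whether strand was used in counting is unknown.

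FDPS (chromosome 1, 155308748 to 155320666, plus strand), farnesyl diphosphate synthase, makes the last intermediate shared by sterols and the other isoprenoids. The PBS libraries held 203, 177 and 176 CPM of it and the cisplatin libraries 239, 245 and 226 CPM. All 3 cisplatin libraries were above all 3 PBS libraries, and the same held in TPM, at 261, 226 and 269 against 317, 315 and 284. The log2 fold change was 0.36 ± 0.08 (SE; edgeR adjusted p = 0.00361), and FDPS was the most abundant of the sterol enzymes per length. With an offset for transcript length it was 0.18 and no longer called (edgeR adjusted p = 0.0744), and limma on log2(TPM + 1) did not call it either (0.28, adjusted p = 0.0607). The lowest adjusted p over the alternatives was 0.000214. RUSC1-AS1, antisense over 18.6% of its exonic bases, averaged 10.8 CPM in PBS and 9.17 CPM in cisplatin libraries.

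FDFT1 (chromosome 8, 11795573 to 11839309, plus strand), squalene synthase, joins farnesyl diphosphate units into squalene and commits the pathway to sterols. Its CPM were 179, 168 and 165 under PBS and 235, 240 and 217 under cisplatin, with a wide gap between the groups. The log2 fold change was 0.43 ± 0.07 (SE; edgeR adjusted p = 0.000739), a fold change of 1.35 with a 95% interval from 1.21 to 1.51. In TPM the libraries read 120, 118 and 129 against 159, 159 and 142, again without overlap. Of the 3 genes of this step FDFT1 alone was called in all 15 alternatives. The summed level of the step went from 407 ± 25.6 TPM to 497 ± 30.7 TPM (SD, n = 3), a ratio of 1.22, and the groups did not overlap (exact permutation p = 0.1, the smallest possible).

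SQLE, squalene epoxidase, uses oxygen to start ring closure and is a rate-limiting enzyme of the later pathway; it lies on chromosome 8, 124998497 to 125022283, plus strand. SQLE held 96.8, 99.3 and 114 CPM under PBS and 85.5, 86.8 and 84.4 CPM under cisplatin. It therefore moved opposite to the enzyme just before it: its log2 fold change was -0.28 ± 0.08 (SE; edgeR adjusted p = 0.0175). In TPM the groups overlapped, at 43.4, 44.0 and 58.8 against 40.2, 43.7 and 38.8, with the third PBS library standing above the rest. The call was lost without PBS replicate 3 (log2 fold change -0.20, edgeR adjusted p = 0.0602), without cisplatin replicate 1 (-0.27, 0.0650), without cisplatin replicate 3 (-0.26, 0.0590) and in limma on TPM; its adjusted p over the alternatives ran from 0.0117 to 0.228. LSS, which folds the epoxide into lanosterol, was at 68.9 ± 8.37 and 74.2 ± 3.63 CPM and did not pass (log2 fold change 0.11; 95% interval of the fold change 0.935 to 1.24).

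Between lanosterol and cholesterol, TM7SF2 changed most of all members. TM7SF2 (chromosome 11, 65111845 to 65116384, plus strand) encodes the sterol C14 reductase of the endoplasmic reticulum, which acts on the product of CYP51A1. The PBS libraries read 84.4, 71.9 and 65.4 CPM and the cisplatin libraries 139, 130 and 146 CPM, and in TPM the values were 83.5, 72.3 and 73.5 against 137, 134 and 138. The lowest cisplatin library stood far above the highest PBS library on both scales. Its log2 fold change was 0.91 ± 0.09 (SE), a fold change of 1.88 with a 95% interval from 1.63 to 2.16 (edgeR adjusted p = 3.46e-05), and it was called in all 15 alternatives. LBR, the nuclear membrane protein with the same reductase activity, averaged 85.3 ± 6.51 CPM and 71.8 ± 15.0 CPM in the same order and did not pass (log2 fold change -0.25, edgeR adjusted p = 0.122). Its cisplatin libraries read 62.1, 89.1 and 64.3 CPM, and its adjusted p ran from 0.00599, without cisplatin replicate 2, to 0.399 over the alternatives.

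NSDHL (chromosome X, 152830967 to 152869729, plus strand), the decarboxylating dehydrogenase of the C4 demethylation complex, held 56.5, 50.6 and 50.1 CPM under PBS and 74.9, 78.1 and 70.7 CPM under cisplatin. In TPM it was at 42.9, 39.0 and 45.1 against 57.7, 60.0 and 52.7. The groups stood apart on both scales. NSDHL rose by 0.51 ± 0.08 on the log2 scale (SE; edgeR adjusted p = 0.000566) and was called in all 15 alternatives. MSMO1, the oxidase of the same complex, did not move with it: 28.4 ± 5.80 and 29.3 ± 4.56 CPM, a log2 fold change of 0.04, and overlapping groups. HSD17B7, the ketoreductase of the complex, was at 30.4 ± 1.38 and 34.3 ± 1.1 CPM without overlap, but did not pass (0.18 ± 0.09, edgeR adjusted p = 0.124).

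EBP (chromosome X, 48521158 to 48528716, plus strand), the sterol isomerase that shifts the ring double bond, read 74.4, 80.6 and 61.5 CPM in PBS libraries and 94.7, 90.1 and 91.6 CPM in cisplatin libraries. The same order held in TPM, at 115, 122 and 106 against 144, 136 and 129. Its log2 fold change was 0.35 ± 0.10 (SE; edgeR adjusted p = 0.0122). EBP was not called without cisplatin replicate 1 (0.34, edgeR adjusted p = 0.0501), with the transcript length offset (0.16) or in limma on TPM, and its adjusted p over the alternatives ran from 0.000976 to 0.133.

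CYP51A1 (chromosome 7, 92112151 to 92134803, minus strand), the cytochrome P450 that demethylates lanosterol, moved the other way. Its CPM were 72.8, 90.8 and 82.8 under PBS and 68.3, 71.9 and 64.4 under cisplatin, so the groups were close but did not overlap. The TPM values were 30.2, 34.6 and 40.1 against 26.7, 26.4 and 23.5. The log2 fold change was -0.27 ± 0.09 (SE; edgeR adjusted p = 0.0312). The call ended without PBS replicate 2 (-0.19, edgeR adjusted p = 0.112), without PBS replicate 3 (-0.27, 0.0630), without cisplatin replicate 1 (-0.27, 0.0918), without cisplatin replicate 3 (-0.23, 0.119) and with the length offset (-0.23, 0.0524). In limma on log2(TPM + 1) the change was -0.43. Its adjusted p was between 0.0137 and 0.119 across the alternatives. An unnamed gene on the same strand (ENSG00000285772) covers 79.4% of the exonic bases of CYP51A1 and held 0 counts in all libraries.

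The late enzymes SC5D and DHCR7 did not pass. SC5D, the sterol desaturase, differed by 0.12 on the log2 scale with overlapping groups, and DHCR7, which reduces the final ring double bond, was at 242 ± 9.77 and 237 ± 4.25 CPM (95% interval of the fold change 0.883 to 1.08). Summed over the 8 genes, the step held 457 ± 13.5 TPM under PBS and 538 ± 17.0 TPM under cisplatin (SD, n = 3), a ratio of 1.18 without overlap (exact permutation p = 0.1). TM7SF2 made up 76.5 TPM of this sum under PBS and 136 TPM under cisplatin, and EBP 114 and 136 TPM.

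**Figure D2:**
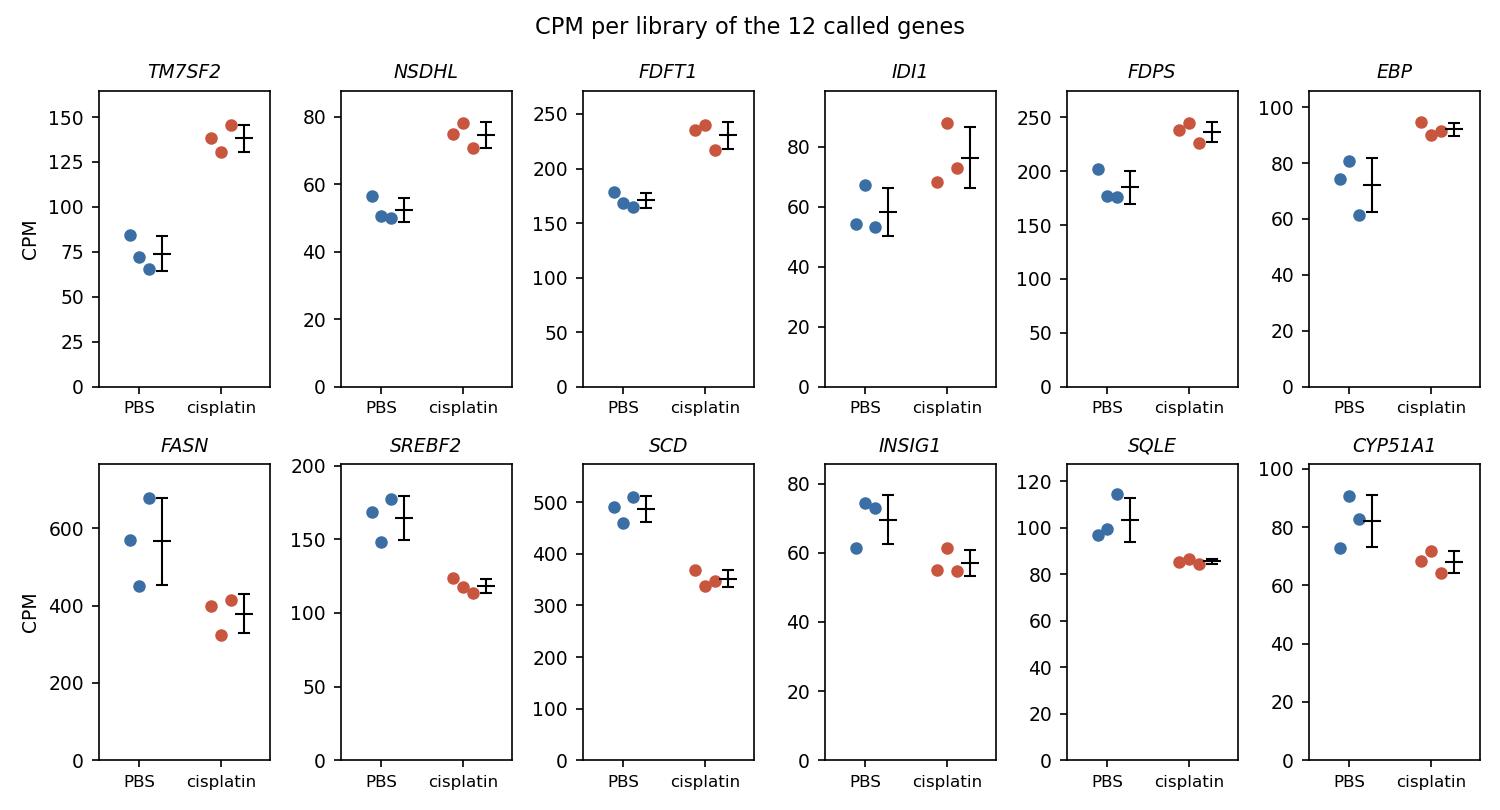
CPM of the 12 called genes in each library, PBS in blue and cisplatin in red, with the mean and SD of each group of 3 in black; every axis starts at 0. Upper panels show the 6 genes that rose and lower panels the 6 that fell; in TM7SF2, FDFT1, NSDHL, SREBF2 and SCD the groups are far apart, and in IDI1, INSIG1 and CYP51A1 the nearest libraries of the groups almost meet.

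SREBF2, which encodes SREBP2, the factor that mainly drives sterol genes, fell. SREBF2 (chromosome 22, 41833079 to 41907308, plus strand) read 168, 148 and 177 CPM in PBS libraries and 123, 117 and 114 CPM in cisplatin libraries, a clear gap. In TPM it was at 40.1, 33.4 and 49.3 against 29.1, 25.4 and 25.5. Its log2 fold change was -0.48 ± 0.08 (SE; edgeR adjusted p = 0.000838), 1.39-fold lower, and it was called in all 15 alternatives, including the length offset (-0.28). SREBF1, whose product mainly drives fatty acid genes, was at 117, 110 and 134 CPM and then 106, 92.8 and 109 CPM. These groups also did not overlap, but by a narrow margin, and the log2 fold change of -0.23 ± 0.09 did not pass (edgeR adjusted p = 0.0622). It passed without PBS replicate 2 (-0.28, edgeR adjusted p = 0.0296), and was -0.15 without PBS replicate 3 (0.215), with a range of 0.0296 to 0.258 over the alternatives. In TPM the SREBF1 groups overlapped, at 50.4, 46.0 and 64.8 against 46.5, 41.3 and 43.0.

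INSIG1 (chromosome 7, 155297776 to 155310235, plus strand), the retention protein whose own gene is an SREBP target, held 61.4, 74.5 and 72.9 CPM under PBS and 54.9, 61.3 and 54.8 CPM under cisplatin. The lowest PBS and the highest cisplatin library nearly coincided. In TPM the values were 29.4, 36.3 and 42.0 against 25.6, 28.5 and 24.4. The log2 fold change was -0.29 ± 0.09 (SE; edgeR adjusted p = 0.0243). Leaving out PBS replicate 2 (-0.23, edgeR adjusted p = 0.0768), PBS replicate 3 (-0.26, 0.0698), cisplatin replicate 1 (-0.27, 0.0982) or cisplatin replicate 3 (-0.26, 0.0883) ended the call, as did limma on TPM, with a range of 0.0103 to 0.0982 over the alternatives. Its relative INSIG2 was much scarcer, at 10.6 ± 1.08 and 11.2 ± 1.01 CPM, and in TPM at 6.86, 8.70 and 10.6 against 10.1, 11.2 and 9.53. INSIG2 did not pass, and its log2 fold change was 0.07. SCAP was at 18.1, 13.7 and 19.8 TPM and then 14.1, 13.9 and 14.6 TPM, with more spread among PBS than among cisplatin libraries, and did not pass (log2 fold change -0.06; 95% interval of the fold change 0.821 to 1.12). The 5 genes summed to 156 ± 26.2 TPM under PBS and 121 ± 4.22 TPM under cisplatin (SD, n = 3), a ratio of 0.773 without overlap (exact permutation p = 0.1).

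FASN (chromosome 17, 82078333 to 82098332, minus strand) encodes fatty acid synthase, which builds palmitate. FASN stood at 569, 451 and 677 CPM under PBS and 400, 323 and 415 CPM under cisplatin, with a wide spread inside each group and no overlap between them. The log2 fold change was -0.58 ± 0.13 (SE; edgeR adjusted p = 0.00484), 1.49-fold lower with a 95% interval of the fold change from 0.550 to 0.818. In TPM the groups overlapped, at 126, 93.5 and 144 against 95.9, 77.2 and 98.2, and limma on TPM did not call it (-0.40; adjusted p over the alternatives 1.26e-10 to 0.102). FASN and SQLE were the fallen genes whose deposited transcript length was also lower in all cisplatin libraries. FASN read 5054, 5287 and 6015 bases under PBS and 4685, 4638 and 4583 bases under cisplatin, and SQLE 2665, 2656 and 2688 against 2556, 2383 and 2515 bases.

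SCD (chromosome 10, 100347124 to 100364834, plus strand) encodes the desaturase that makes oleate and palmitoleate. It held 491, 460 and 511 CPM under PBS and 370, 337 and 347 CPM under cisplatin, and in TPM 104, 96.1 and 126 against 78.5, 70.7 and 71.1. The groups were apart on both scales and the replicates close. The log2 fold change was -0.47 ± 0.07 (SE), 1.39-fold lower (edgeR adjusted p = 0.000479), and it was called in all 15 alternatives. The pair summed to 230 ± 39.8 TPM and 164 ± 14.1 TPM (SD, n = 3), a ratio of 0.714 without overlap (exact permutation p = 0.1).

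The LXR and transport genes showed no called change. NR1H2, which encodes LXR beta, was at 19.4, 19.9 and 20.9 TPM under PBS and 20, 16.9 and 18.4 TPM under cisplatin, with a log2 fold change of -0.11 (95% interval of the fold change 0.806 to 1.07). ABCG1 was scarce, at 3.26 ± 0.976 and 4.0 ± 0.688 CPM, and its interval of 0.842 to 1.75 leaves a wide range of changes undetectable at this depth. ABCA1 had 0, 3 and 8 counts under PBS and 2, 4 and 4 under cisplatin, too few to test. STARD4, which carries cholesterol between membranes, was at 42.1 ± 7.91 and 44.7 ± 3.33 CPM and did not pass (0.08; 95% interval of the fold change 0.881 to 1.26).

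Per length, the most abundant members under PBS were FDPS (252 ± 22.5 TPM), FDFT1 (122 ± 5.71), ACAT2 (122 ± 12.8), FASN (121 ± 25.4), DHCR7 (120 ± 14.5), EBP (114 ± 7.94) and SCD (109 ± 15.2; SD, n = 3). FDPS stood above the other 6, whose neighbours in this order did not differ beyond their spread. Under cisplatin FDPS (305 ± 18.5 TPM) still led, followed by FDFT1 (153 ± 9.81), TM7SF2 (136 ± 2.04) and EBP (136 ± 7.25), while SCD lay at 73.5 ± 4.40 TPM.

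Some paired genes moved apart within each library. These pairs were chosen after their values were seen, so the ratios are a description without a test. INSIG1 stood at 4.29, 4.17 and 3.98 times the TPM of INSIG2 under PBS and at 2.53, 2.54 and 2.56 times under cisplatin; in CPM the ratios were 6.47, 7.04 and 6.26 and then 4.92, 4.99 and 5.33. The cisplatin libraries were thus lower on both scales, though less so in CPM. SREBF1 over SREBF2 in TPM was 1.26, 1.37 and 1.32 under PBS and 1.6, 1.63 and 1.69 under cisplatin. TM7SF2 over LBR was 3.07, 2.17 and 2.09 under PBS and 6.43, 4.90 and 6.73 under cisplatin. FDFT1 over SQLE, the enzymes on either side of squalene, was 2.77, 2.69 and 2.19 under PBS and 3.95, 3.65 and 3.66 under cisplatin. All these ratios kept the groups apart in CPM too.

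**Figure D3:**
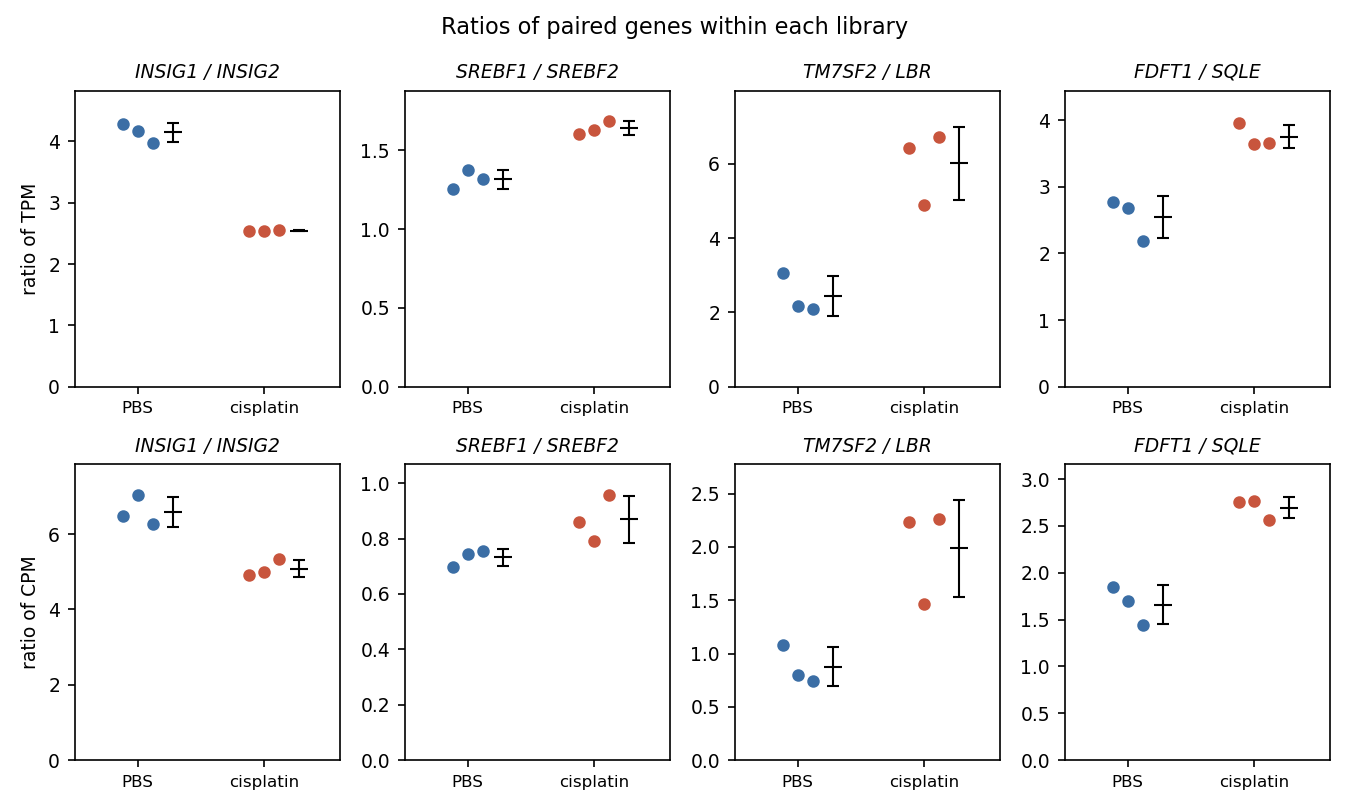
Ratios of paired genes within each library, from TPM in the upper panels and from CPM in the lower panels, PBS in blue and cisplatin in red, with mean and SD of 3 libraries in black; every axis starts at 0. INSIG1 over INSIG2 is lower in all cisplatin libraries, and the other ratios are higher in all of them.

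The direction of change went with transcript length. The 6 genes that rose had a median deposited length of 1535 bases, the 6 that fell 3911 bases and the 16 that did not pass 2297 bases, beside 2360 bases for all tested genes. Across all 15063 tested genes the log2 fold change fell by 0.15 per doubling of length (Spearman's rho -0.35); across the 28 members it fell by 0.34 (rho -0.62, n = 28 genes that share the same 6 libraries and are not independent). The slope of log2 CPM deviations on length was 0.03, 0.06 and 0.13 under PBS and -0.06, -0.05 and -0.10 under cisplatin, so libraries differed within as well as between groups. With an offset for length in each library, 4 members were higher (TM7SF2 0.77, NSDHL 0.40, IDI1 0.36 and FDFT1 0.35) and 5 lower (FASN -0.37, INSIG1 -0.30, SREBF2 -0.28, SQLE -0.27 and SCD -0.25). FDPS (0.18) and EBP (0.16) were no longer called, nor was CYP51A1, whose change of -0.23 stayed near the -0.27 found without the offset (edgeR adjusted p = 0.0524; 0.0137 to 0.119 over the alternatives). Without the offset the log2 changes of SREBF2, SCD and FASN were 1.68, 1.86 and 1.57 times as large as with it.

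**Figure D4:**
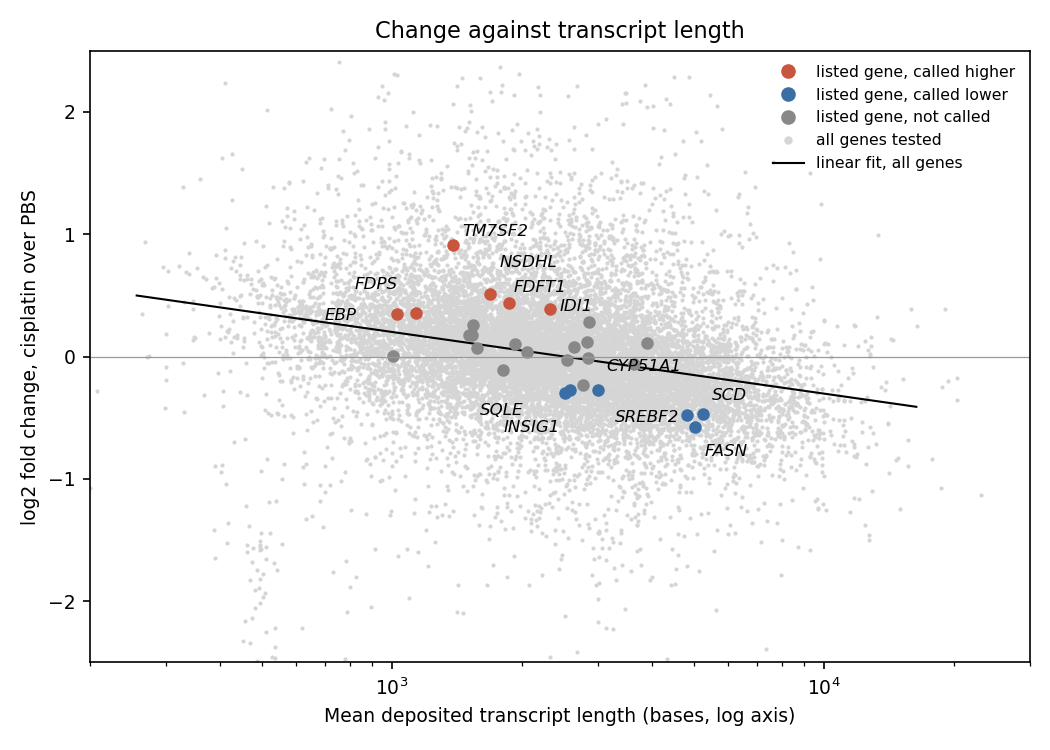
Log2 fold change, cisplatin over PBS, against the mean deposited transcript length in bases on a log axis; grey dots are all tested genes within the axes, the line a linear fit to all genes, and larger points the 28 listed genes. The genes called higher (red) lie left of the genes called lower (blue); the red points are above the line and the blue points below it.

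The estimated transcript length itself, which reflects the mix of isoforms, separated the groups in 15.8% of all tested genes. Among the members, HMGCS1, ACAT2, IDI1, SCAP and INSIG1 had longer estimates in all cisplatin libraries and SQLE, SC5D, INSIG2 and FASN shorter ones. For ACAT2 the difference was very small, with means of 1508 bases under PBS and 1513 bases under cisplatin. INSIG2 read 1781, 1594 and 1674 bases under PBS and 1493, 1467 and 1410 bases under cisplatin. SCAP read 3492, 3476 and 3568 bases and then 3857, 3749 and 3685 bases, although its CPM overlapped. Levels of single isoforms were not analysed here.

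Other genes of these pathways were counted from lists drawn up for the same processes. Among 8 partners of the sterol enzymes, 2 rose and 2 fell: ERG28, the scaffold of the C4 demethylation complex, averaged 54.4 ± 2.77 and 84.3 ± 6.18 CPM in PBS and cisplatin libraries (0.63 ± 0.08 in log2, SE; edgeR adjusted p = 0.00016) and CYB5B, an electron donor, rose by 0.24, while FAXDC2, at 10 to 42 counts per library, fell by 1.24 and CYB5A by 0.27. ERG28 thus moved in the direction of NSDHL in the same complex. In the isoprenoid branch beyond FDPS (12 genes), DOLK, which phosphorylates dolichol, rose (0.43), and PDSS2, of the coenzyme Q side chain (-0.44), and NUS1, of dolichol synthesis (-0.34), fell.

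The wider fatty acid list of 16 genes split evenly, with 3 higher and 3 lower. The delta-5 desaturase FADS1 fell from 235 ± 13.1 to 158 ± 4.13 CPM, or by 0.58 ± 0.07 in log2 (edgeR adjusted p = 0.00011), and ACACA, which makes the malonyl-CoA that FASN extends, from 301 ± 24.1 to 214 ± 2.67 CPM (-0.49). The acetate-activating enzyme ACSS2 (0.60) and the elongation reductase TECR (0.48) rose. Of 10 glycerolipid genes, 4 rose and 1 fell: DGAT2, which makes triglyceride, rose by 0.54, GPAM fell by 0.24, and LPIN3 had 2.31, 0 and 3.17 expected counts under PBS and 10.7, 9.71 and 21.2 under cisplatin, so few that its call (edgeR adjusted p = 0.0021) carries no usable fold.

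Among 9 genes of SREBP cleavage and sterol-regulated degradation, 3 fell and 0 rose. MBTPS2, the site-2 protease that releases SREBPs, averaged 44.3 ± 6.37 CPM under PBS against 30.5 ± 3.12 under cisplatin (-0.55 ± 0.12 in log2; edgeR adjusted p = 0.003), and ERLIN1, of the degradation machinery, fell by 0.56. MBTPS2 shares 12.2% of its exonic bases with YY2 on the same strand. Of 13 sterol transport and storage genes, 4 rose and 0 fell: NPC2, the soluble cholesterol carrier of lysosomes, went from 44.3 ± 7.39 to 95.7 ± 1.53 CPM (1.12 ± 0.11, edgeR adjusted p = 2.4e-05), and TMEM97, which binds NPC1, rose by 0.35. Of 5 LXR partners, 4 were tested, and 1 rose and 2 fell. RXRB rose (0.33), and the corepressor NCOR1 was among those that fell (-0.33). In fatty acid oxidation, 4 of 14 genes rose, led by ACADVL (0.55), of long-chain and ACADS (0.67), of short-chain oxidation, and ETFDH fell by 0.61. Antisense genes share exonic bases with LPIN3 (EMILIN3, 13.5%), TMEM97 (IFT20, 11.9%) and ETFDH (PPID, 10.9%). Of the genes named from these lists, 10 were called in all 15 alternatives (ACADVL, ACSS2, ERG28, ERLIN1, FADS1, FAXDC2, LPIN3, MBTPS2, NPC2 and TECR) and the others lost the call in at least 1, among them GPAM, whose log2 fold change was 0.03 with the length offset. The shares called in these lists lay on both sides of the 38.2% of all genes.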

How the data were processed

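RNA-seq of NCI-H520 cells was analysed in 6 libraries, 3 PBS and 3 cisplatin. The authors deposited expected counts, TPM and FPKM per gene, with transcript and effective lengths, in RSEM's column layout per the file headers; the FPKM values were not used. Alignment was with STAR 2.7.9 to GRCh38 (hg38), per the submitters' processing notes. Not given in the sources used here are the quantifier's version, the annotation and any use of strand. Symbols were found for 61399 of 61552 genes and GENCODE 29 positions, of the same build, for 58352.

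After rounding, expected counts went into edgeR 4.0.16 (R 4.3.3) with filterByExpr (count minimum 10, total 15), TMM scaling, and a quasi-likelihood test on group alone, with Benjamini-Hochberg adjustment over 15063 genes and a threshold of 0.05. SE, SD and 95% intervals include the spread between libraries. Precision rests on 9121180 to 16724285 counts per library. No libraries were duplicates (chi-square per degree of freedom within groups 2.98 to 21.2). Step sums used an exact permutation test on TPM.

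Alternatives were RLE and total count scaling, no filter or 50 counts in 3 libraries, a replicate block, a lowess offset for transcript length, DESeq2 1.42.0, a fit of protein-coding nuclear genes alone, limma 3.58.1 on log2(TPM + 1), and leaving out each library, 15 in all. All members were named; other lists give counts and up to 2 called genes per direction with the smallest adjusted p. One gene that this rule names is not reported here. Genes of the files sharing at least 10% of exonic bases with a member are named beside it, except SOD2-OT1 (33.9% of ACAT2; 1.16 and 1.65 CPM) and ENSG00000261604 (15.0% of HMGCS1; 0 CPM). The members and lists were chosen with earlier results of these data known. The script was tested on simulated data.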

Additional observations from a re-analysis of the deposited data

How the results depend on the processing

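On all genes, edgeR called 5752; limma on log2(TPM + 1) called 2861, and leaving out 1 library gave 4205 to 5283. Members higher were 6, 3 with limma on TPM, and 8 with the 50-count filter or among protein-coding nuclear genes alone; members lower were 6, 3 with limma on TPM, and 3 to 6 when 1 library was left out (3 without PBS replicate 3, without cisplatin replicate 1 and without cisplatin replicate 3). With the replicate block, 5819 genes, 7 higher and 7 lower members were called, MVD and SREBF1 (-0.23, edgeR adjusted p = 0.0296) being the ones gained. Deviations from the group mean correlated from -0.08 to 0.12 between same-numbered libraries and from -0.19 to 0.13 between differently numbered ones. With 3 libraries per group, these values cannot settle whether the numbers pair the libraries. In summed CPM the cisplatin over PBS ratio was 1.31 for the steps to squalene (1.22 in TPM) and 1.06 for the sterol carrier (0.832 in TPM). TM7SF2, NSDHL, FDFT1, SREBF2 and SCD kept their direction and call in all 15 alternatives. The sign of some uncalled log2 fold changes near 0 turned: HMGCS1 (total count scaling 0.00511, 50-count filter 0.00170, length offset 0.0212, leave-one-out -0.0878 to 0.0630), PMVK (replicate block -0.00374, length offset -0.206, limma on TPM -0.117, leave-one-out -0.105 to 0.0701), MSMO1 (length offset -0.0208, limma -0.00951, leave-one-out -0.0571 to 0.238), LSS (limma -0.0383), SC5D (leave-one-out -0.00883 to 0.225), SCAP (length offset 0.0428, leave-one-out -0.169 to 0.00594), INSIG2 (length offset -0.0527) and STARD4 (limma -0.259, leave-one-out -0.0204 to 0.250). The cause was not tested. Depth limits what can be seen of ABCA1 and ABCG1, which held the fewest counts.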
